A study of Mus musculus with 6 samples.

Results

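Interstitial collagens are the proteins that bear tension between the cells of the heart, and the 10 genes described here encode chains of types I, III, V, VI, VIII and XIV: Col1a1, Col1a2, Col3a1, Col5a1, Col5a2, Col6a1, Col6a2, Col6a3, Col8a1 and Col14a1. Members were all probe sets that the platform annotation assigns to exactly 1 symbol, that symbol being 1 of the 10 genes, which gave, for 10 of 18193 genes, 22 of the 45037 probe sets on the array that are not controls, with 1 to 3 for each gene. That rule reads only the annotation, but the 10 genes themselves were proposed with earlier results of these data known. RNA of 6 hearts of male mice, aged 5 to 6 months and fasted for 6 hours, was measured on 1 Affymetrix array each. Of these hearts 3 were labelled wild type and 3 were labelled Cav1KO, a knockout of Cav1, the gene for caveolin-1, the main coat protein of the membrane pits called caveolae. The strain, the deleted part of the gene and whether the deletion was confined to a cell type are not given in the sources used here, and no label says that each array came from its own animal, so a p-value here speaks only of the spread among these 6 samples, which may be technical.

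Type I and type III collagen form the thick and thin banded fibrils of the cardiac interstitium, and type V is built into the core of such fibrils and limits their width. Each fibril protein is a trimer of chains wound into a triple helix, secreted as a procollagen whose ends are then cut off. Type VI assembles from 3 different chains into beaded filaments around cells, type VIII forms short-chain networks that are best known in vessels, and type XIV is a fibril-associated collagen that sits on the surface of type I fibrils. In the heart, fibroblasts are the main source of types I and III.

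In knockout hearts the RNA of most of these collagens was higher. Of the 22 probe sets 20 were bright enough to be tested, and 12 of the 20 rose in knockout hearts at an adjusted p of 0.05, none fell and 8 did not pass (limma, Benjamini-Hochberg over all 22519 probe sets tested). Of all probe sets tested, 3.17% were called, and 2.36% were called higher in knockout. With 1 probe set a gene, the brightest, 7 of the 10 genes rose, against 2.97% of all 11486 genes (4.02% called in either direction, 1.05% lower). That count of 7 was 3 with wild type replicate 3 left out, 4 with wild type replicate 2, knockout replicate 1 or knockout replicate 2 left out, and 4 with no trend in the variance. The 12 calls came from 8 of the 10 genes, and Col5a1 and Col8a1 had none. The median difference of the 20 probe sets, on the scale of log2(intensity + 16) on which all differences here are given, was 0.44, with a range from 0.16 to 0.92, while the median over all tested probe sets was -0.0096. The groups did not overlap, with knockout higher, in 19 of the 20, against 12.3% of all tested probe sets. Probe set 1418441_at of Col8a1, counted among them, was bright enough to be tested only through its knockout hearts. The 2 untested probe sets, 1446326_at of Col1a2 and 1453931_at of Col14a1, lay at percentiles 5.83 and 36.0 of level.

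The count of 12 depended on single hearts. Leaving out wild type replicate 3 gave 6 (1.06% of all tested probe sets higher), wild type replicate 2 gave 8 (2.45%) and wild type replicate 1 gave 12 (1.61%). Leaving out knockout replicate 1 gave 6 (0.684%), knockout replicate 2 gave 6 (0.826%) and knockout replicate 3 gave 10 (1.75%). Wild type replicate 1 had the lowest deposited total of the 6 arrays and was the highest wild-type heart for 15 of the 20 probe sets after normalisation. With the intensities as deposited the count was 14 (2.56%). Array totals of deposited intensity ran from 11736722 to 12397257, and over all probe sets 531 were called higher and 183 lower, or 577 and 58 as deposited. The label check used Cav1 itself, whose probe set stood at a normalised intensity of 3968 ± 215 (SD, n = 3) in wild-type and 107 ± 9.85 (SD, n = 3) in knockout hearts. Because whole hearts were measured, more cells of a kind and more RNA per cell cannot be told apart in any of the differences below.

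**Figure D1:**
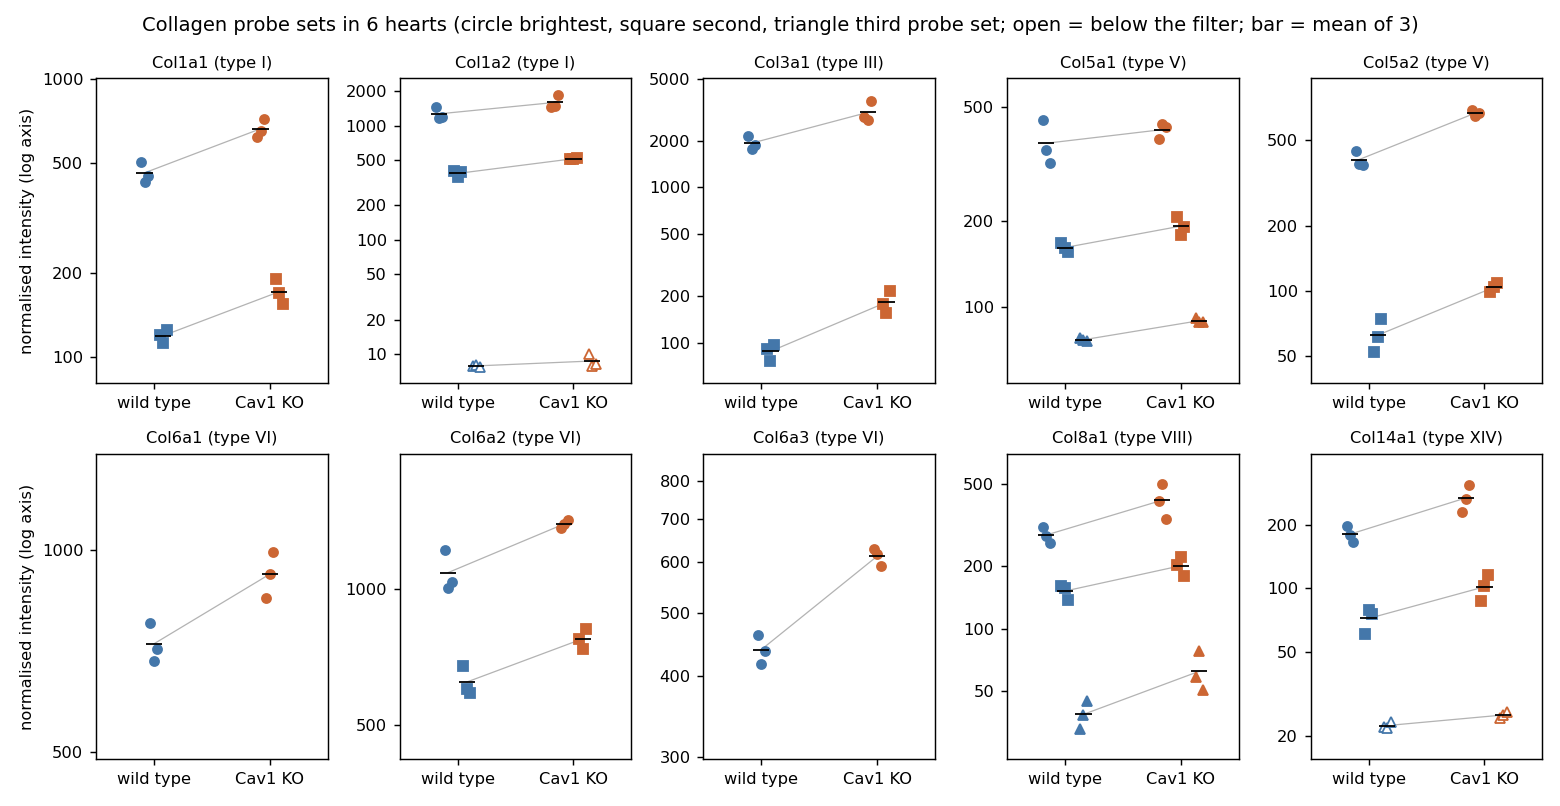
Normalised intensity (log axis) of each probe set of the 10 collagen genes in the 3 wild-type and 3 Cav1 knockout hearts, with a point for each heart, a bar for the group mean and a symbol for each probe set of a gene; open symbols are the 2 probe sets below the filter on low values. Both groups are apart in every panel's filled symbols except for the brightest probe set of Col5a1, where wild type replicate 1 at 447 lies above all knockout hearts.

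The promoters of 7 of the 10 genes were found in the RefSeq table of build GRCm38.p6, which holds 250 bases before to 50 after a start; Col1a1, Col5a2 and Col14a1 were not matched. The windows of 3 genes with unlike responses are shown, a type I chain, the type III chain and the type V chain that did not pass. Capitals mark 3 motifs searched on both strands. They are TATAAA, the letters of the TATA box, and CCAAT, the letters bound by the factor NF-Y. The last is GGGCGG, the letters of the Sp1 box. No motif overlaps another in these windows.
Col1a2 promoter on the plus strand at chr6:4505368-4505667: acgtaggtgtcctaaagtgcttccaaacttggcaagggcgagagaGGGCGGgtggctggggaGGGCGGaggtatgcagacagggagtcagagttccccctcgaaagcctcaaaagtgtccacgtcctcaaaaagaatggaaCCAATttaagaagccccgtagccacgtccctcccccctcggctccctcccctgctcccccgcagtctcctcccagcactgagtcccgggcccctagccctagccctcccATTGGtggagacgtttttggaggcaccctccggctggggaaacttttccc
Col3a1 promoter on the plus strand at chr1:45311288-45311587: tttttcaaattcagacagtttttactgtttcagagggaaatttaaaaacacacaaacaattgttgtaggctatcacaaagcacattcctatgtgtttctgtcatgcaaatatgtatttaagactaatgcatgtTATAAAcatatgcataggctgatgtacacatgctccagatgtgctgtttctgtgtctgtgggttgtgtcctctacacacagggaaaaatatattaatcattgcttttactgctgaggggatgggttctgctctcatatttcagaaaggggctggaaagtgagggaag
Col5a1 promoter on the plus strand at chr2:27886175-27886474: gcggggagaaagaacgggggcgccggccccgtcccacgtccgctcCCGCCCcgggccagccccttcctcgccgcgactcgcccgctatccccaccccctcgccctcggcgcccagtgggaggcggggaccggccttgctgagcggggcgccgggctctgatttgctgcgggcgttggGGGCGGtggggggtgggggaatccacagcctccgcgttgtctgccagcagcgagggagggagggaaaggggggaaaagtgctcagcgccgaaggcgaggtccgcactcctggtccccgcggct

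These windows had little in common. The Col3a1 window held TATAAA and neither of the other motifs, with 37.7% G and C, while the Col5a1 window held 2 copies of GGGCGG and 75% G and C. The Col1a2 window held 2 copies each of CCAAT and GGGCGG. Over the 8 windows of the 7 genes (Col6a2 has 2, which overlap), TATAAA was in 1, CCAAT in 1 and GGGCGG in 5, and of all 32851 windows of this length 13.6%, 37.4% and 35.7% held them. Col3a1 and Col5a2 are next to each other on chromosome 1 with no protein-coding gene between them, as are Col6a1 and Col6a2 on chromosome 10. Col1a2 lies on chromosome 6 at 12.8 Mb from Cav1, so donor sequence carried along with a knockout allele and the genotype cannot be told apart for it; the other 9 genes are on other chromosomes.

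Of the type I genes, Col1a1 rose at both of its probe sets. Its brighter probe set, 1423669_at, had normalised intensities of 505, 428 and 449 in wild-type hearts and 620, 651 and 720 in knockout hearts. All knockout hearts were above all wild-type hearts, and the difference was 0.51 (SE 0.076, limma adjusted p = 0.00979, n = 3 each), past the threshold also when any 1 heart was left out. The second, 1455494_at, had 120, 112 and 125 against 190, 169 and 155, a difference of 0.47 (SE 0.081, limma adjusted p = 0.0186). It missed the threshold without wild type replicate 3 (adjusted p = 0.0544), knockout replicate 1 (0.0878) or knockout replicate 2 (0.0771).

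Col1a2, which encodes the partner chain of Col1a1 in the type I trimer, was called at 1 of 2 tested probe sets. Probe set 1423110_at gave 397, 357 and 389 in wild-type against 515, 507 and 518 in knockout hearts. The knockout hearts lay very close together there, and the difference of 0.42 (SE 0.055, limma adjusted p = 0.00624) held without any 1 heart. The brightest, 1450857_a_at, gave 1446, 1161 and 1196 against 1455, 1484 and 1850, so that wild type replicate 1 came within a few units of knockout replicate 1. Its difference of 0.33 (SE 0.10) had a limma adjusted p of 0.136 and did not pass under any of 16 other settings. The dimmest probe set, 1446326_at, was near the bottom of the array, at 7.84, 7.97 and 7.76 in wild-type against 10.02, 7.81 and 8.2 in knockout hearts, and was not tested.

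Col3a1, the only gene of type III, had the largest differences of the 10 genes at a single probe set. Probe set 1427884_at stood at 90.7, 76.5 and 96.1 in wild-type hearts and at 176, 154 and 215 in knockout hearts, without overlap. Its difference was 0.92 (SE 0.12, limma adjusted p = 0.00488), the mean intensity was 2.07 times as high, and it passed without any 1 heart. The brighter 1427883_a_at had 2153, 1775 and 1872 against 2839, 2707 and 3607, with knockout replicate 3 far above the other knockout hearts. It rose by 0.65 (SE 0.11, limma adjusted p = 0.0151), with a mean intensity 1.58 times as high, and missed the threshold without wild type replicate 3 (0.0722) or knockout replicate 1 (0.0569). The 2 intervals overlap, 0.41 to 0.89 for the brighter and 0.66 to 1.19 for the weaker probe set.

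The type V chains gave unlike results. Col5a2 rose at both probe sets, and 1422437_at, with 445, 389 and 385 in wild-type against 690, 645 and 665 in knockout hearts, had the smallest adjusted p of all 20. The gap between the groups was wide and the difference was 0.70 (SE 0.065, limma adjusted p = 0.00129, 95% interval 0.55 to 0.84), past the threshold without any 1 heart. The weaker 1450625_at went from 52.2, 60.9 and 73.9 to 98.6, 104 and 109, a difference of 0.62 (SE 0.10, limma adjusted p = 0.0142) that missed the threshold without knockout replicate 1 (0.0622) or knockout replicate 2 (0.0657).

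Col5a1, the other type V chain, did not pass at any of its 3 probe sets. The brightest, 1416740_at, had 447, 352 and 319 in wild-type against 387, 436 and 424 in knockout hearts, and was the only tested probe set whose groups overlapped. Its difference was 0.16, with a 95% interval from -0.084 to 0.41. At 1434479_at the hearts gave 168, 161 and 156 against 207, 179 and 190, and at 1416741_at 78.0, 77.3 and 76.3 against 91.8, 89.1 and 89.1, without overlap. These differences, 0.23 and 0.19, had limma adjusted p of 0.121 and 0.143, and their intervals ran from 0.070 to 0.38 and from 0.048 to 0.32. The upper ends of all 3 intervals lay below the lower end of the interval of the brighter Col5a2 probe set, 0.55. The interval of the weaker Col5a2 probe set, 0.39 to 0.85, overlapped that of 1416740_at.

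In type VI all 4 probe sets of the 3 genes described here rose, by 0.31 to 0.46. Col6a4, another type VI gene, which is counted with the other collagens below, stood at -0.025 (limma adjusted p = 0.869). Its normalised intensities were low, 63.1 to 74.0 over the 6 hearts, and the scale used understates changes of low probe sets. Col6a3, which encodes the largest chain, had 464, 418 and 437 in wild-type against 628, 617 and 592 in knockout hearts. That was a difference of 0.46 (SE 0.055, limma adjusted p = 0.0037), and it passed without any 1 heart. Col6a1 went from 777, 684 and 713 to 848, 921 and 993, without overlap, and rose by 0.34 (SE 0.069, limma adjusted p = 0.0371). It still passed with wild type replicate 1 left out. Its adjusted p became 0.0716 and 0.123 when wild type replicates 2 and 3 were left out, and 0.055, 0.131 and 0.0849 when knockout replicates 1, 2 and 3 were. It also missed the threshold with no filter on low values (0.0521) and with no trend (0.0752).

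Col6a2 was close to Col6a1. Its brighter probe set, 1452250_a_at, had 1221, 1003 and 1039 in wild-type against 1368, 1393 and 1421 in knockout hearts, and rose by 0.36 (SE 0.069, limma adjusted p = 0.0299). The other, 1426947_x_at, whose suffix marks probes that may also bind other transcripts, had 676, 602 and 589 against 774, 736 and 817, and rose by 0.31 (SE 0.065, limma adjusted p = 0.0394). Knockout was higher without overlap at both. Each passed with wild type replicate 1 left out and missed the threshold with any other heart left out. For the brighter the adjusted p was then 0.0561 and 0.108 for wild type replicates 2 and 3, and 0.107, 0.109 and 0.0741 for knockout replicates 1, 2 and 3. For the other they were 0.0744 and 0.126, and 0.141, 0.0802 and 0.0987. With no trend they were 0.0692 and 0.0764, and with no filter the other was 0.0559.

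Col8a1 had differences as large as those of type I but did not pass. Its probe sets gave 311, 280 and 259 against 415, 496 and 339 for 1455627_at, 161, 157 and 138 against 202, 223 and 179 for 1418440_at, and 33.1, 38.4 and 44.7 against 58.4, 78.3 and 50.8 for 1418441_at. At all 3, knockout replicate 2 was the highest and knockout replicate 3 the lowest knockout heart, and no groups overlapped. The differences were 0.52, 0.37 and 0.51, with limma adjusted p of 0.0596, 0.0634 and 0.0759. Without knockout replicate 3 the first 2 passed, at 0.66 (adjusted p = 0.0167) and 0.44 (0.0448), and so they did with the intensities as deposited, at 0.59 (0.0461) and 0.44 (0.0476), when centred on the median (0.0398 and 0.0449) and with the upper 25% (0.0389 and 0.0422). With 1 probe set per gene the first passed too (0.0469). The dimmest, 1418441_at, had a mean log2 value of 5.77 in wild-type hearts, below the lowest tested mean of 5.92, and of 6.28 in knockout hearts. It was tested only through its knockout hearts, so its place among the probe sets without overlap carries no weight.

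Col14a1 was called at 1 of 2 tested probe sets. The brightest, 1427168_a_at, had 198, 179 and 166 in wild-type hearts and 230, 267 and 310 in knockout hearts, a difference of 0.53 (SE 0.10, limma adjusted p = 0.0334). Here knockout replicate 3 was the highest knockout heart and knockout replicate 1 the lowest. Its adjusted p became 0.0614 and 0.119 with wild type replicates 2 and 3 left out, and 0.117 and 0.0664 with knockout replicates 2 and 3 left out, and it was 0.0569 with no trend. The second, 1428455_at, went from 61.0, 79.3 and 75.5 to 86.9, 103 and 115, a difference of 0.42 with a limma adjusted p of 0.0829. The untested 1453931_at stood at 21.95, 21.7 and 23.3 against 24.2, 25.1 and 25.9.

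**Figure D2:**
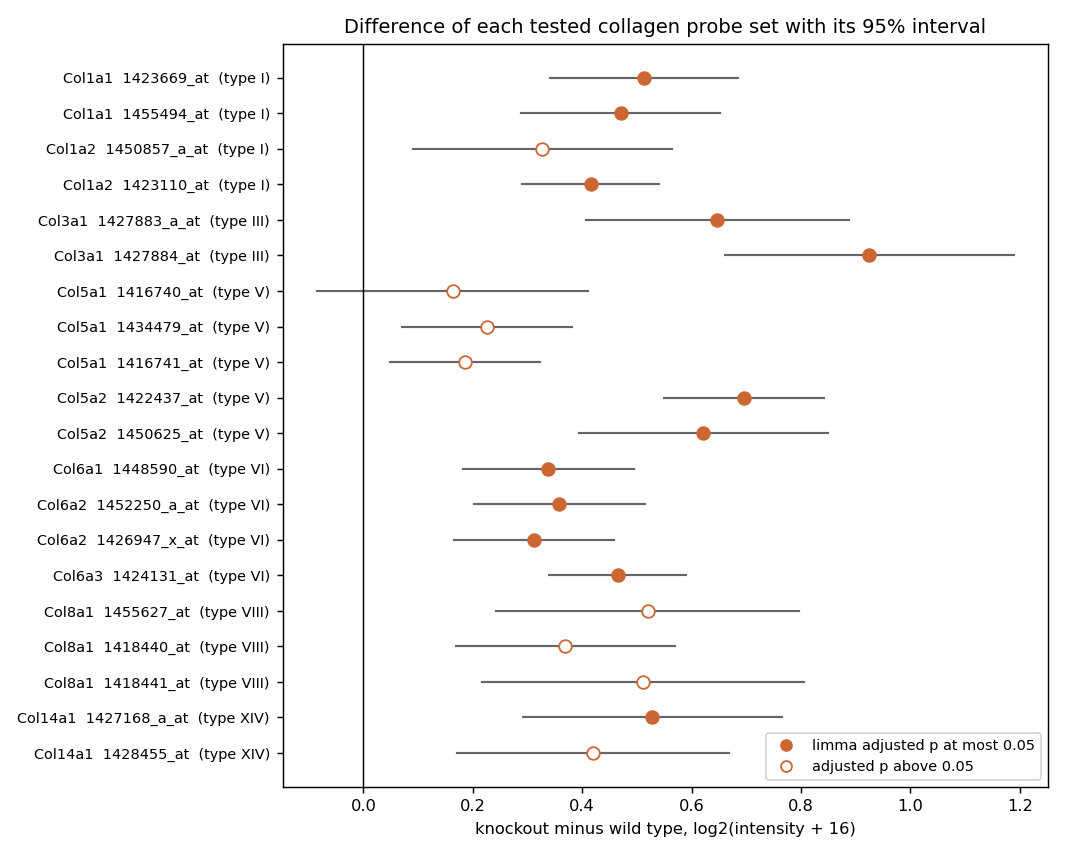
Knockout minus wild type on the scale of log2(intensity + 16) for the 20 tested collagen probe sets, with the 95% interval of the limma fit as a line; filled points passed an adjusted p of 0.05 and open points did not. Both Col3a1 probe sets, at 0.65 and 0.92, and both Col5a2 probe sets, at 0.62 and 0.70, lie farthest to the right, and the 3 Col5a1 probe sets, at 0.16 to 0.23, farthest to the left.

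By type, the median difference over tested probe sets was 0.79 for type III (2 of 2 called), 0.51 for type VIII (0 of 3), 0.47 for type XIV (1 of 2), 0.44 for type I (3 of 4), 0.35 for type VI (4 of 4) and 0.23 for type V (2 of 5). Probe sets of type V differed most among themselves, by 0.53 from lowest to highest, because its 2 genes stood apart, against 0.11 to 0.28 in the other types. Size and calls did not go together: types VIII and XIV had larger medians than type VI, with fewer calls. The type VIII median was that of 1418441_at, which was tested only through its knockout hearts. The other probe sets of that type stood at 0.37 and 0.52.

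Whether the genes moved unequally was asked with the ratio of 2 genes within each heart, from the brightest probe set of each, for 12 pairs. Knockout and wild-type ratios did not overlap in 5 pairs. The log2 ratio of Col5a2 to Col5a1 went from -0.0059, 0.14 and 0.26 to 0.81, 0.55 and 0.63, a rise of 0.53 (SE 0.11). Col3a1 over Col6a1 went from 1.45, 1.36 and 1.37 to 1.73, 1.54 and 1.84, a rise of 0.31 (SE 0.094). The type V chain Col5a1 and the type VI chain Col6a1 moved less than Col1a1, with ratio changes of -0.35 (SE 0.10) and -0.18 (SE 0.021), and so did the brightest probe set of Col1a2, with -0.19 (SE 0.061). Each of these 5 had an exact permutation p of 0.1, two-sided, the smallest that 3 against 3 allows, and a Benjamini-Hochberg value of 0.24 over the 12 pairs, so none could pass.

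In the other 7 pairs the groups overlapped by brightest probe set. The ratio of Col3a1 to Col1a1 changed by 0.13 (SE 0.079), but by 0.29 and without overlap with the mean of all probe sets of each gene, and that of the neighbours Col5a2 and Col3a1 by 0.048 (SE 0.13). Col6a2 over Col6a1 changed by 0.020 (SE 0.060) and Col14a1 over Col1a1 by 0.014 (SE 0.075). For Col8a1 over Col1a1 the mean change was 0.0066, but the knockout hearts spread from -1.05 to -0.38 (SD 0.35), against -0.76 to -0.58 (SD 0.087) in wild-type hearts.

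**Figure D3:**
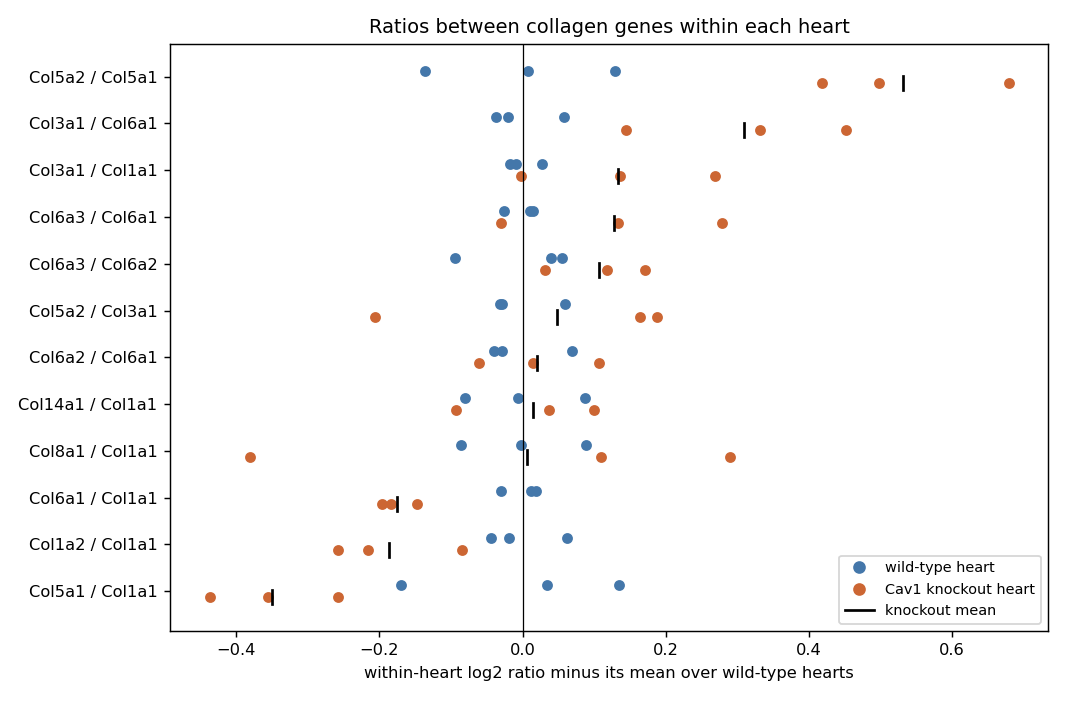
Log2 ratio of 2 collagen genes within each heart, brightest probe set of each, minus its mean over the 3 wild-type hearts; points are hearts and the bar is the mean of the 3 knockout hearts. Knockout hearts lie to the right of all wild-type hearts for Col5a2 over Col5a1 and Col3a1 over Col6a1, to the left for Col6a1, Col1a2 and Col5a1 over Col1a1, and overlap them in the other 7 pairs.

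Other collagens were tested by list, and no list was tested against the 10 genes. By brightest probe set, 0 of 7 tested genes of the other interstitial and associated collagens, Col6a4 of type VI among them, passed limma (Benjamini-Hochberg), in either direction. Nor did any in the 15 other settings that tested them (with the upper 25% of probe sets 0 of these genes were bright enough). Their median difference was -0.025, and at an unadjusted p of 0.05, 1 of the 7 passed. Of all 11486 genes, 2531 passed at that unadjusted p, the number to set beside each such count below. Col5a3, another type V chain, stood at 0.29 (limma adjusted p = 0.165) and Col12a1, which is related to Col14a1, at -0.17 (0.251). Of 9 genes of basement membrane collagens 3 rose: Col4a1 by 0.65, Col4a2 by 0.44 and Col18a1 by 0.60, with a median of 0.12 for the list. The summed normalised intensity of these 9 genes was 1.388 times as high in knockout as in wild-type hearts, and that of the 10 collagens 1.398 times, both without overlap. Over all genes counted this way the median was -0.014. The basement membrane count was 1 without wild type replicate 3, knockout replicate 1 or knockout replicate 2.

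Genes that help to build collagen fibrils rose in part. Of 16 tested genes for folding and hydroxylation 3 rose: Serpinh1, the collagen chaperone, by 0.42 (SE 0.062, limma adjusted p = 0.0105), Sparc, a collagen-binding matrix protein, by 0.30, and the lysyl hydroxylase gene Plod1 by 0.25. Of their tested probe sets, 1 of 2 passed for Serpinh1, 2 of 3 for Sparc and 1 of 2 for Plod1. P4ha1, a subunit of prolyl hydroxylase, stood at 0.48 and did not pass (0.092). Serpinh1 had normalised intensities of 1791, 1770 and 1849 in wild-type against 2680, 2326 and 2248 in knockout hearts, and passed without any 1 heart. The count was 1 without knockout replicate 1. All 16 differences were above 0, and the list's median was 0.11.

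Among 8 genes for trimming and cross-linking, Loxl1, an enzyme of the lysyl oxidase family, rose by 0.48. Pcolce, which speeds the cutting of the procollagen end, rose by 0.37, and Tgm2, a transglutaminase, by 0.30. By probe set, 1 of 5 tested passed for Tgm2, 1 of 2 for Loxl1 and 2 of 2 for Pcolce. Lox itself stood at 0.39 with a limma adjusted p of 0.118. Loxl1 went from 779, 694 and 711 to 1043, 1066 and 958 and passed without any 1 heart, while the count of 3 was 1 without wild type replicate 3, knockout replicate 1 or knockout replicate 2.

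Of 10 proteoglycan genes whose products bind fibrils 4 rose: Bgn by 0.39, Aspn by 0.41, Fmod by 0.37 and Prelp by 0.26. Bgn passed without any 1 heart, and the count was 1 without wild type replicate 3, knockout replicate 1 or knockout replicate 2, 2 without wild type replicate 1 or knockout replicate 3 and 3 without wild type replicate 2. By probe set, 2 of 3 tested passed for Bgn, 1 of 2 for Aspn, 2 of 6 for Fmod and 1 of 2 for Prelp. Dcn, decorin, stood at 0.10 (limma adjusted p = 0.379). Of 10 genes for collagen degradation and its inhibition 0 passed limma (5 at an unadjusted p of 0.05), and Timp4 stood at 0.66 (0.0601), Timp1 at 0.51 (0.076) and Mmp14 at 0.45 (0.0577). That count was 1 without wild type replicate 1 or wild type replicate 2 and 2 without knockout replicate 3.

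Of 8 tested collagen receptor genes 0 passed limma (1 at an unadjusted p of 0.05), also without any 1 heart, and Itgb1 and Ddr2 stood at 0.053 and 0.10. The 1 was Antxr2, a receptor that binds type VI collagen, which stood at -0.17, lower in knockout without overlap (limma adjusted p = 0.0919). In the profibrotic signalling list, 2 of 15 rose, Postn by 0.81 and the receptor gene Tgfbr2 by 0.31. Postn is also counted among the activated fibroblast markers below, and Tgfbr2 passed at 1 of 2 tested probe sets. The count was 1 with any heart other than wild type replicate 2 left out. Tgfb1, Tgfb2 and Tgfb3 stood at 0.093, 0.15 and 0.058 and Ccn2 at -0.15, none passing. Of the 15 differences 12 were above 0. Tgfbr1 stood at 0.26 with a limma adjusted p of 0.0628.

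**Figure D4:**
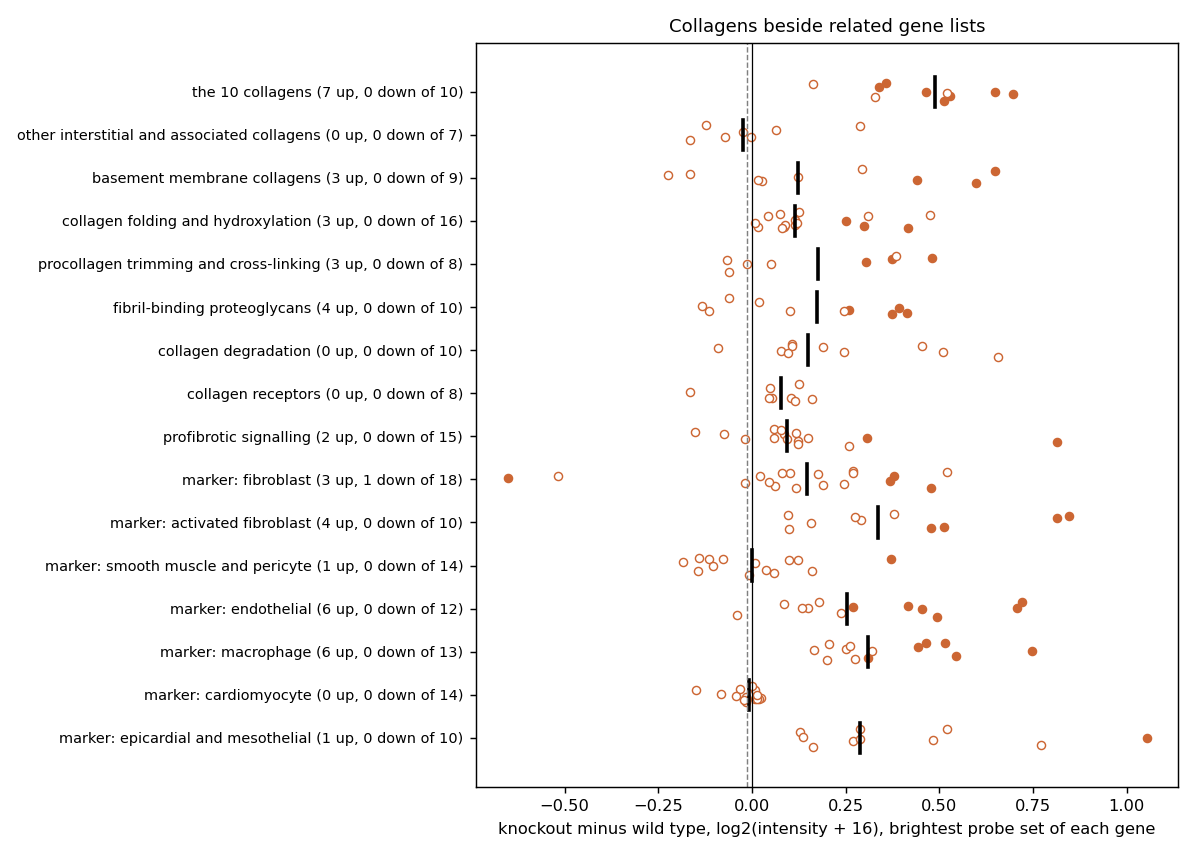
Knockout minus wild type on the scale of log2(intensity + 16) for the brightest probe set of each tested gene, for the 10 collagens and for related and cell marker lists; filled points passed an adjusted p of 0.05, the thick bar is the list's median and the dashed line is the median of all genes tested, -0.014. The collagens have the median farthest to the right, 0.49, and the cardiomyocyte markers, whose top ranks share values, have a median of -0.0078. The adipocyte list, with a median of -0.34, and the Schwann cell and valve list, with -0.15, are not drawn.

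Cell markers moved in the same hearts, and their part in the collagen differences was not tested. Of 18 cardiac fibroblast markers, chosen without collagens, 3 rose (Igfbp4 by 0.37, Meox1 by 0.48, Mfap5 by 0.38) and Clec3b fell by 0.65, with a median of 0.15. Among tested probe sets, 2 of 6 passed for Igfbp4, 1 of 2 for Mfap5, and 1 of 1 for both Meox1 and Clec3b. Gsn and Dcn, the brightest markers, stood at -0.018 and 0.10. The summed normalised intensity of the 18 markers was 26181 to 27464 in wild-type and 27272 to 31014 in knockout hearts, with overlap. The count of 3 was 1 when replicate 2 or 3 of the wild type, or replicate 1 or 2 of the knockout, was left out.

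The mean log2 level of the 10 collagens minus that of the fibroblast markers went from -0.22, -0.40 and -0.44 to -0.061, 0.037 and -0.021, a shift of 0.34. That difference did not overlap between the groups. Minus 10 tested markers of activated fibroblasts, of which Postn, Cilp (by 0.84), Comp (by 0.51) and Meox1 rose, the collagens shifted by 0.061, with overlap. The shift also overlapped against macrophage (0.094), endothelial (0.14) and epicardial and mesothelial (0.046) markers. Against smooth muscle and pericyte (0.45), cardiomyocyte (0.48), Schwann cell and valve (0.48) and adipocyte (1.26) markers it did not overlap, as against fibroblast markers. The activated fibroblast sum was 5266 to 5687 in wild-type and 6695 to 6953 in knockout hearts, while Acta2, the actin of myofibroblasts and smooth muscle, stood at 0.098 (limma adjusted p = 0.271). The count of 4 was 2 without knockout replicate 2.

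Markers of other cells gave a mixed picture. Of 12 endothelial markers 6 rose (sum 6419 to 6733 in wild-type, 7841 to 8725 in knockout hearts). Among them were Pecam1 by 0.71, Tek by 0.49 and Tie1 by 0.42, which are surface proteins of vessel lining cells. Of the 6 that did not pass, Eng stood at 0.15, Cdh5 at 0.13, Flt1 at 0.084 and Kdr at -0.039. The endothelial count ran from 4 to 6 when 1 heart was left out. Of 13 macrophage markers 6 rose, Ptprc by 0.75 and Ctss by 0.46 among them (sum 7133 to 8272 against 9261 to 9656), and 0 passed limma without knockout replicate 1, 2 without knockout replicate 2 or wild type replicate 3, 3 without wild type replicate 1 and 4 without knockout replicate 3. Of 14 smooth muscle and pericyte markers 1 rose, Higd1b by 0.37. Of 10 epicardial and mesothelial markers 1 rose, Lrrn4 by 1.05 (sum 744 to 1212 against 1292 to 1523). The first count was 0 without wild type replicate 3, knockout replicate 1 or knockout replicate 2, the second 0 without any 1 knockout heart. All 10 epicardial and mesothelial differences were above 0, and 5 passed at an unadjusted p of 0.05. Krt18, which is in both counts, was bright enough to be tested only through its knockout hearts. Its mean log2 value was 5.85 in wild-type and 6.12 in knockout hearts, against a lowest tested mean of 5.92. Upk1b stood at 0.14 by its brightest probe set (limma adjusted p = 0.418), but 3 of its 4 tested probe sets passed. Of 14 cardiomyocyte markers 0 passed limma (0 at an unadjusted p of 0.05). These markers of the labelled tissue were among the brightest probe sets in all 6 hearts. Quantile normalisation gives the top ranks a few shared values (Mb was 21201 in 4 of the 6 hearts), so differences such as -0.032 for Myh6 and 0.023 for Mb say little about their levels.

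Adipocyte markers varied between hearts: Ucp1 stood at -2.45 and Adipoq at -1.89, with overlap and limma adjusted p of 0.107 and 0.109. Of 6 tested genes of that list Fabp4, which endothelial cells express too, rose by 0.15, with 1 of its 4 tested probe sets passing. Cidea stood at -0.42, lower in knockout without overlap (limma adjusted p = 0.14). The sum, most of it Fabp4 (8898 to 10391 over the 6 hearts), was 10305 to 12095 in wild-type and 10846 to 11435 in knockout hearts. The count of genes that rose was 0 without any heart but wild type replicate 2. Without wild type replicate 1 or knockout replicate 3, 1 gene was called lower. Of 4 tested Schwann cell and valve genes Comp was called, and not without wild type replicate 1 or knockout replicate 2, with a sum of 590 to 664 against 648 to 738.

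Within the wild-type group 1 heart was high for all 10 genes, while signs were mixed among knockout hearts. In wild type replicate 1 the brightest probe set of all 10 genes lay above its group mean, by 0.076 (Col6a3) to 0.27 (Col5a1). In knockout replicate 3 Col1a1, Col1a2, Col3a1, Col6a1 and Col14a1 were above their group mean by 0.11 to 0.25, while Col8a1 lay below it by 0.27 and Col6a3 and Col5a2 were below it by 0.047 and 0.0031. The genes most like the mean of the 10 collagens over the 6 hearts, among 19730 probe sets of other genes, were Tmsb10, a thymosin (Pearson's r = 0.990), Tmem184b (0.987), Tsr2 (0.985), Nrp1, a semaphorin and VEGF co-receptor (0.984), and Wasf2, an actin regulator (0.984). With 6 hearts in 2 groups, 101 probe sets had an r above 0.95, so the order among them is loose.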

How the data were processed

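RNA of 6 mouse hearts was measured on 1 Affymetrix array each. The deposited table holds 1 intensity per probe set and array on a linear scale; no label states how probe sets were corrected, summarised or scaled, and GCOS 1.4 is named without a role in the submitters' processing notes. Samples were grouped by their titles. The 64 control probe sets were left out. Trimmed means (2% at each end) of the deposited intensities differed by 8.42% between arrays, so quantile normalisation was applied (limma 3.58.1, R 4.3.3). Values became log2(intensity + 16), which understates changes of low probe sets, and the upper 50% by mean over all arrays (22519, lowest mean log2 value 5.92) were tested without covariates (lmFit, then eBayes with its intensity trend). P-values were adjusted after Benjamini and Hochberg. Genes of lists were counted by their brightest tested probe set. Ratios were compared with exact permutation tests in scipy 1.17.1. The test was checked on simulated data. Precision is limited by the number of arrays.

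The platform annotation gave the names; 34945 probe sets had 1 symbol. Named are all collagen probe sets, Cav1, from each list up to 4 genes with the smallest p and 2 with the highest level, other collagens that passed and the 5 most alike genes. Col6a4 and some genes of the signalling and endothelial lists that did not pass are named besides. The members and lists were chosen with earlier results of these data known. Protein sequences were not used here. Alternatives changed the normalisation, the pseudocount, the filter, the trend, the probe sets per gene and left out each heart.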

Additional observations from a re-analysis of the deposited data

How the results depend on the processing

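No tested collagen probe set changed direction: of 303 values under 16 other settings 262 stayed on their side of the threshold, 32 no longer passed and 9 newly passed. The collagen count of 12 ran from 6 to 12 when 1 heart was left out, and was 8 without the trend and 10 with no filter. Over all probe sets the 714 calls became 411 without the trend and 189 to 749 with 1 heart left out. The 531 higher calls became 338 without the trend and 154 to 552, and the 183 lower calls became 58 as deposited, 41 when centred on the median, 103 with no filter, 73 without the trend and 35 to 197.

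Ratios near 0 turned sign; the cause was not tested. With a pseudocount of 64, Col8a1 over Col1a1 gave -0.014 and Col14a1 over Col1a1 -0.034. The mean of all probe sets of a gene took in the 2 untested ones, among them 1453931_at of Col14a1, whose difference was 0.099. With that mean, Col6a2 over Col6a1 gave -0.0024, Col5a2 over Col3a1 -0.13, Col8a1 over Col1a1 -0.025 and Col14a1 over Col1a1 -0.14. Col3a1 over Col1a1 went from 0.13 to 0.29, its groups no longer overlapping. With 1 heart left out, the first 4 ran from -0.025 to 0.060, -0.024 to 0.18, -0.14 to 0.20 and -0.030 to 0.067.

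Alternatives for the gene lists were added after seeing the data. Proteoglycan genes called higher numbered 2 with no filter and 1 without the trend, degradation genes 1 as deposited, centred on the median or with the upper 25%, and 2 with 1 probe set per gene, and signalling genes 1 with no filter or without the trend. With 1 heart left out, the counts ran from 1 to 3 for basement membrane collagens, trimming and cross-linking, and proteoglycans, from 1 to 4 for folding, from 0 to 2 for degradation and from 1 to 2 for signalling. No paired analysis was possible because the titles give no number that wild-type and knockout samples share.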
